A study of Danio rerio with 6 samples.

Results

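The TRIM family genes of the zebrafish ovary were described here in WT and ddx4-L mutant fish, with the fish-specific finTRIM (ftr) and btr genes set beside the trim genes. The members were the genes of the deposited table whose zebrafish symbol, ignoring case, starts with ftr, btr or trim followed by a digit, with at least 10 counts in 3 or more of the 6 libraries. Of 32519 genes in the table, 163 carried such a symbol and 98 of them met the count minimum, namely 30 of 74 ftr genes, 17 of 22 btr genes and 51 of 67 trim genes. RNA was sequenced from whole ovaries of WT fish and of ddx4-L mutant fish (ddx4-E4Δ), a CRISPR-Cas9 line with a short deletion in the alternative exon 4 of ddx4, all at 6 mpf (months post-fertilization), with 3 libraries of each genotype. That exon belongs to the ovary-biased transcript of ddx4, a germline RNA helicase, and the study compared the ovaries to find RNAs altered in the mutant. The labels give no strain, do not say how many fish went into a library, and name a single mutant line.

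TRIM proteins share a RING finger, 1 or 2 B-boxes and a coiled coil, followed by a C-terminal region that differs between classes. The RING finger of many of them transfers ubiquitin to other proteins, and several mammalian members, TRIM25 among them, act in the sensing of viral RNA and in the interferon response. The finTRIM genes are a branch found in fish, first noticed in trout as genes induced by virus, and most finTRIM and btr proteins end in a B30.2 domain, which binds other proteins. The btr genes are named after bloodthirsty, a zebrafish TRIM gene needed for making red blood cells. Many ftr and btr genes lie in tandem arrays of near-identical copies, so that reads can be shared between copies. How the authors counted reads that map to several places is not given in the sources used here, and the value of a single ftr, btr or numbered trim35 gene is uncertain to that extent.

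The column totals of the table ranged from 76520483 to 86263179, and the values were used as estimated counts, since about 4 units of the table appear to stand for 1 sequenced fragment. Levels are given as CPM, that is, counts in proportion to a TMM-scaled library size, which are not divided by gene length, so that the CPM of different genes is not an order of transcript number. A gene with 0 counts could still lie at up to 0.142 to 0.161 CPM, the level of 12 counts. The ovary label was checked with 11 oocyte markers, which summed to between 15230 and 16244 CPM in WT and between 12756 and 17094 CPM in mutant libraries, with 1 of them called (GDF9, lower). Of other cell types, granulosa and theca markers summed to 54.9 to 92.3 CPM in WT and 97.8 to 101.9 CPM in the mutant. Most of that sum was CYP17A1, with 33.0 to 74.3 CPM in WT and 78.6 to 89.0 CPM in the mutant. Of the 8 granulosa and theca markers tested 3 were higher and 5 lower, with a median log2 fold change of -0.16. Stroma and vessel markers summed to at most 84.1 and 144.3 CPM, and erythrocyte markers to 3.11 to 15.3 and 2.97 to 3.79 CPM. The ddx4 gene itself, whose transcripts the table does not tell apart, differed by 0.13 on the log2 scale (standard error, SE, 0.087, edgeR adjusted p = 0.47, Benjamini-Hochberg over all genes), and so gave no check of the genotype. In whole ovaries, fewer cells of a type and less RNA per cell cannot be told apart.

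Of the 65 family genes below the count minimum, 44 were ftr genes, 5 btr genes and 16 trim genes, and 11 had no count in any library. The highest single count among them was 76, in btr06. Just inside the minimum, the third-highest count was 10 for ftr88 and ftr89 and 11 for ftr13 and ftr55, and just outside it was 9 for ftr23 and ftr34 and 8 for ftr95 and trim35-14. The ftr members lay lowest, with a median level of 0.364 CPM over all 30 members and a range from 0.0882 to 131.2 CPM. The btr members had a median of 3.63 CPM (0.207 to 74.4 CPM) and the trim members 9.55 CPM (0.145 to 281.9 CPM), against 8.01 CPM over all 19353 genes tested. The low-count filter of edgeR removed ftr55, ftr88 and ftr89, which left 95 members for the test. Of the members, 5 reached the minimum only through the libraries of 1 genotype. They were ftr13 and ftr87 through the mutant libraries and ftr88, ftr91 and trim35-24 through the WT libraries, and a member chosen in that way had to differ between the genotypes. In ftr04, ftr80, btr19 and trim110 a single WT library reached 10 counts, so that they too were members mainly through the mutant libraries.

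In the ddx4-L mutant ovaries btr07, ftr67, trim35-7 and TRIM9 fell. The test also called ftr87 higher, at very low counts, but ftr87 met the count minimum only through the mutant libraries, so that its direction was fixed by how it was chosen, and its call was lost whenever 1 library was left out. These 5 of 95 tested members (5.26%) passed an adjusted p of 0.05 (quasi-likelihood test of edgeR, Benjamini-Hochberg over all genes), against 4.57% of all genes tested. The 4 that fell also differed by at least 1 on the log2 scale, which 3.11% of all genes reached together with the adjusted p, while the bound for ftr87, without counts in WT, was 0.79 on that scale. Over all genes tested 2.61% were called lower and 1.96% higher. The ftr and btr genes gave 3 of the calls (1 higher and 2 lower, 6.82% of 44 tested) and the trim genes 2 (both lower, 3.92% of 51 tested). Those shares are near the background, so the calls alone did not set the family apart from other genes of the ovary.

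The btr07 gene (ENSDARG00000105558) fell most among the called members. Its CPM was 9.23, 6.20 and 6.57 in WT replicates 1, 2 and 3 and 0.660, 0.510 and 0.290 in mutant replicates 1, 2 and 3. Every mutant library lay far below every WT library, at 7.33 ± 1.65 for WT and 0.487 ± 0.186 for the mutant (mean ± SD, n = 3). The fitted log2 fold change, mutant over WT, was -3.91 (SE 0.41, edgeR adjusted p = 0.0048), and the call held in all 16 alternatives. The neighbouring genes in the RefSeq order give a contrast. The array btr04, btr05 and btr06 lies next to btr07 with 1 other gene between, and the only one of those 3 to meet the minimum, btr04, had 73.7, 75.6 and 66.8 CPM in WT and 68.1, 79.5 and 82.9 CPM in mutant libraries. Its genotypes overlapped (log2 fold change 0.09, standard error 0.10).

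The finTRIM genes ftr67 and ftr87, which RefSeq places side by side, were called in opposite directions. The direction of ftr87 was fixed by how it was chosen, since it met the count minimum only through the mutant libraries. The ftr67 gene (ENSDARG00000098820) had 16.6, 18.3 and 50.0 CPM in WT and 4.18, 2.88 and 4.39 CPM in mutant libraries. WT replicate 3 stood well above the other WT libraries, and the lowest WT library was still above the highest mutant library. Its log2 fold change was -2.89 (SE 0.47, edgeR adjusted p = 0.019), and the adjusted p became 0.079, 0.069 and 0.065 without mutant replicates 1, 2 and 3. The ftr87 gene (ENSDARG00000102557) had 0 counts in each WT library and 27, 19 and 18 counts in the mutant libraries, or 0.324, 0.248 and 0.227 CPM. Against the floor of 12 counts in each WT library, its mean mutant level was 1.73-fold higher, taking the mutant counts as they stand. Its adjusted p was 0.046 with edgeR, and without any 1 of the 6 libraries it lay between 0.09 and 0.15, so that the call did not hold when a library was left out. RefSeq neighbours were taken by symbol from the assembly GRCz12tu, which is not the build of the files.

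**Figure D1:**
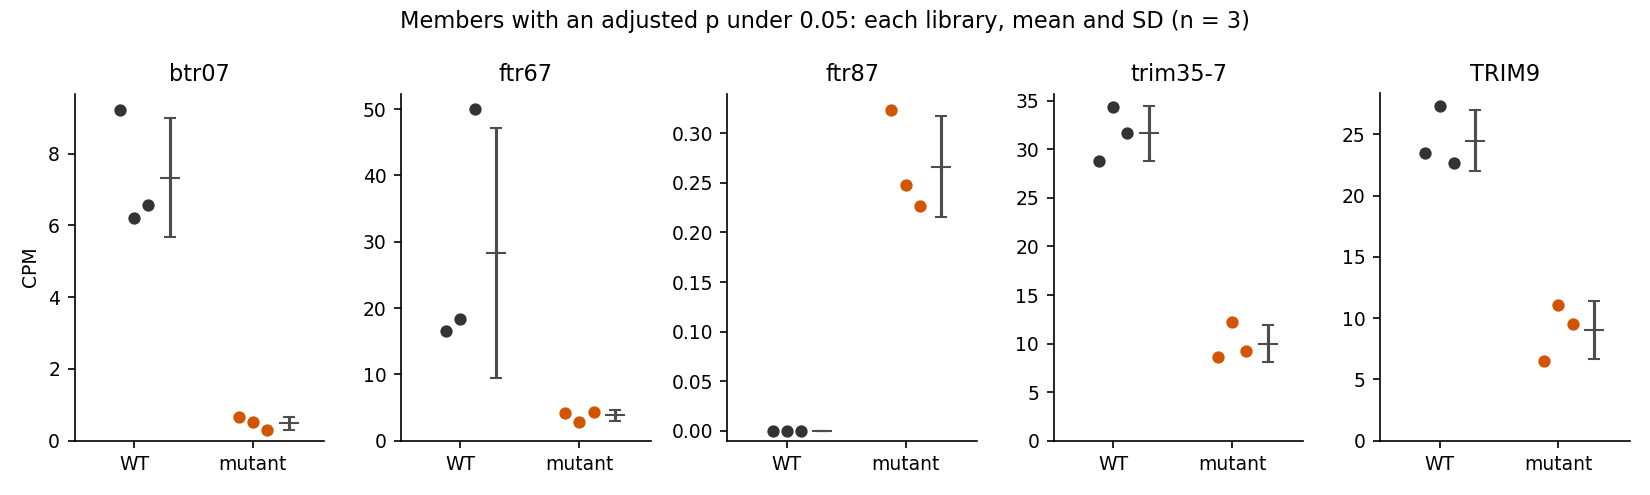
Level of the 5 members with an adjusted p under 0.05 (edgeR), in CPM on a linear axis for each gene. Points are the 3 WT and 3 mutant libraries and bars are the mean ± SD. btr07, ftr67, trim35-7 and TRIM9 lay lower in every mutant library than in any WT library, and ftr87 was counted in the mutant libraries only.

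The trim35-7 gene (ENSDARG00000104825), 1 of 16 members with a trim35 number, had 28.8, 34.4 and 31.7 CPM in WT and 8.58, 12.2 and 9.22 CPM in mutant libraries. The libraries of each genotype lay close together and far from the other genotype. The log2 fold change was -1.66 (SE 0.18, edgeR adjusted p = 0.0050), and this call too held in all 16 alternatives. TRIM9 (ENSDARG00000039123), known in mouse as a neuronal ubiquitin ligase of axon guidance, had 23.5, 27.3 and 22.7 CPM in WT and 6.51, 11.1 and 9.49 CPM in mutant libraries. All WT libraries lay above all mutant libraries, and a fitted log2 fold change of -1.44 (SE 0.22, edgeR adjusted p = 0.015). The adjusted p was 0.054 without WT replicate 2 and 0.052 without mutant replicate 3.

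The ftr and btr genes differed from the trim genes in how far their levels lay apart between the genotypes. The median absolute log2 fold change was 0.92 over the 44 tested ftr and btr members and 0.34 over the 51 trim members, beside 0.31 over all genes tested. A log2 fold change of 1 or more in size was found in 20 of the 44 ftr and btr members (45.5%) and in 12 of the 51 trim members (23.5%), against 18.8% of all genes, with ftr87 counted by its fitted value. These counts include ftr13, ftr87, ftr91 and trim35-24, which met the count minimum through 1 genotype only. The 16 numbered trim35 genes, set apart after the values were seen, had a median absolute value of 0.88, with 43.8% at 1 or more. The other 35 trim members had 0.29 and 14.3%. Low genes are measured with more error, and the median standard error was 0.66 for the ftr and btr members and 0.26 for the trim members. The members were also split at a mean of 1 CPM, after seeing the data. Under 1 CPM the families were closer to each other. There 50.0% of 24 ftr and btr members, 45.5% of 11 trim members and 36.8% of all genes reached 1 in size. The median absolute log2 fold changes under 1 CPM were 1.0, 0.85 and 0.71. Among genes with a mean of at least 1 CPM, the median absolute log2 fold change was 0.84 for 20 ftr and btr members, 0.29 for 40 trim members and 0.24 for all 14203 genes. Above 1 CPM, 8 of 20 ftr and btr members and 17.5% of the trim members reached a log2 fold change of 1 in size, against 12.2% of all genes. The families still differed there in precision and level, with a median SE of 0.44 for ftr and btr, 0.17 for trim and 0.19 for all genes, and a median level of 8.59 CPM for ftr and btr and 18.7 CPM for trim. The part of that in the difference between the families was not tested. Members are not independent of each other and no test was made of these medians.

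**Figure D2:**
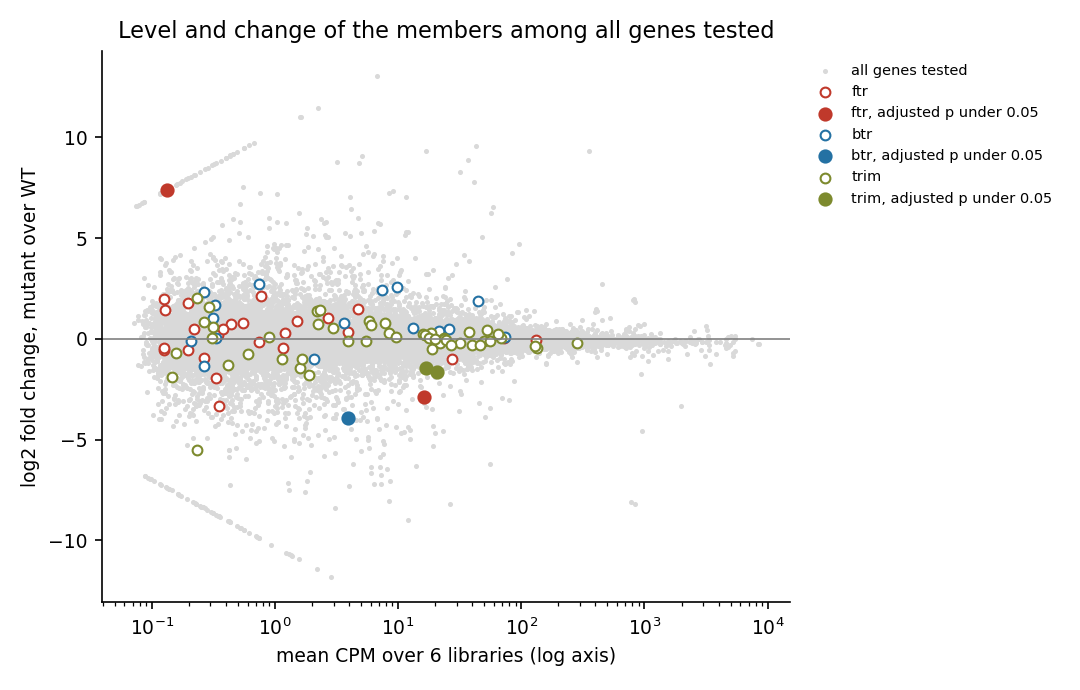
Log2 fold change (mutant over WT) against mean CPM over the 6 libraries on a log axis, for all 19353 genes tested (grey) and for the ftr, btr and trim members, filled where the adjusted p was under 0.05. Most trim members lie near 0, while many ftr and btr members lie further from it at low and middle levels.

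By direction, 29 of 44 ftr and btr members had a higher fitted level in the mutant and 15 a lower one, while the trim members split into 24 higher and 27 lower. Their medians on the log2 scale were 0.45 for the ftr and btr members (0.27 for ftr and 0.56 for btr) and -0.02 for the trim members, beside 0.01 over all genes tested. With ftr87 at its bound the first median stayed 0.45, and without mutant replicate 1 it was 0.25. Over members with at least 10 counts in each of the 6 libraries the medians were 0.45 for 26 ftr and btr members and -0.02 for 45 trim members. The levels of the genotypes did not overlap for 23 of 44 ftr and btr members (52.3%, 16 higher and 7 lower in the mutant) and for 19 of 51 trim members (37.3%, 10 higher and 9 lower). Over all genes tested 28.4% did not overlap. The members without overlap include ftr13, ftr87, ftr91 and trim35-24. These met the count minimum through 1 genotype only, so that their lack of overlap follows from how they were chosen. Also without overlap were ftr04, ftr80, btr19 and trim110, in which a single WT library reached 10 counts. An unadjusted p under 0.05 was found for 13 ftr and btr members (29.5%) and 17 trim members (33.3%), against 19.9% of all genes. Among genes of at least 1 CPM it was found for 8 of 20 ftr and btr members and 15 of 40 trim members (37.5%), against 23.3% of all genes.

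**Figure D3:**
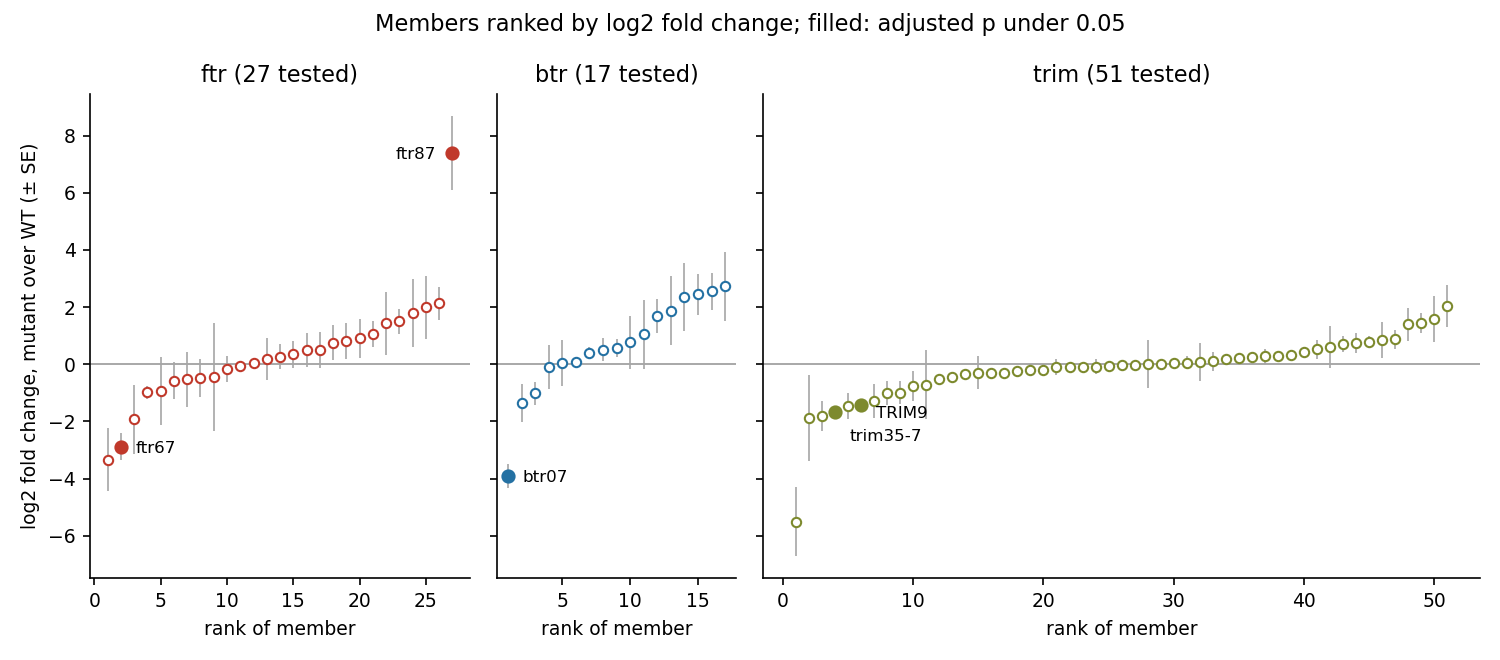
Log2 fold change (mutant over WT) with its standard error (SE) for each tested member, ranked within ftr, btr and trim, filled where the adjusted p was under 0.05. The median was 0.27 for ftr, 0.56 for btr and -0.02 for trim, and the value of ftr87 is a fitted one against WT libraries without counts.

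The 8 members numbered btr18 to btr26, set apart after the values were seen, had the 8 highest fitted log2 fold changes among the btr genes. None of them passed edgeR's test with all libraries. RefSeq places btr23, btr24, btr25 and btr26 in a row and btr22 next to btr18. The most counted, btr18, had 0.242, 18.9 and 38.0 CPM in WT and 90.0, 47.5 and 71.8 CPM in mutant libraries. The genotypes did not overlap, but the WT libraries spread so widely that the log2 fold change of 1.87 had an SE of 1.2 (adjusted p = 0.42 with edgeR). The btr20 gene had 0.510, 1.75 and 4.59 CPM in WT and 16.8, 8.38 and 12.4 CPM in mutant libraries, and a fitted log2 fold change of 2.45 (SE 0.72, edgeR adjusted p = 0.11). The btr26 gene had 0.672, 2.66 and 5.22 CPM in WT and 19.9, 12.1 and 18.1 CPM in mutant libraries, and a fitted log2 fold change of 2.55 (SE 0.65, edgeR adjusted p = 0.076). For both, WT replicate 1 was lowest and WT replicate 3 highest among the WT libraries, as for btr18, and mutant replicate 2 was lowest among the mutant libraries. DESeq2 called both, with adjusted p values of 0.00065 for btr20 and 5.1e-05 for btr26, and edgeR called btr20 without WT replicate 3 (adjusted p = 0.049).

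The remaining genes of this numbering were lower in level. The btr23 gene had 0.282, 0 and 0.297 CPM in WT and 1.40, 0.471 and 2.01 CPM in mutant libraries (log2 fold change 2.73, adjusted p = 0.24 with edgeR). The btr22 gene had 0.121, 0.212 and 0.130 CPM in WT and 0.552, 0.458 and 0.479 CPM in mutant libraries (log2 fold change 1.68, adjusted p = 0.17), and btr19 had 0, 0.185 and 0.0712 CPM in WT and 0.540, 0.196 and 0.593 CPM in mutant libraries (log2 fold change 2.35, adjusted p = 0.32). In these 3 genes the genotypes did not overlap, although several WT values lay under the floor. The genotypes overlapped in btr24 (log2 fold change 1.05) and in btr25, which had 0.792, 0.781 and 6.45 CPM in WT and 8.51, 2.14 and 3.09 CPM in mutant libraries. All 8 genes had a higher fitted level in the mutant.

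Leukocyte markers varied over the libraries as well. The 18 leukocyte markers that matched a gene summed to 31.9, 49.2 and 96.1 CPM in WT and 134.3, 47.4 and 134.2 CPM in mutant libraries, beside 2.22, 24.1 and 54.2 CPM in WT and 135.2, 70.1 and 105.4 CPM in mutant libraries for the sum of btr18, btr20, btr25 and btr26. WT replicate 1 was lowest in both sums, and mutant replicate 2 was the lowest mutant library in both. The marker sums overlapped between the genotypes while the btr sums, of genes picked after their values were seen, did not. Much of the marker sum was cd74a, with 11.3 to 42.3 CPM in WT and 22.6 to 54.8 CPM in the mutant, and marco, with 0.861 to 11.2 and 1.82 to 31.7 CPM. Of the 15 leukocyte markers tested 9 were higher and 6 lower, with a median log2 fold change of 0.61, and 0 were called by edgeR or DESeq2. The lower ones were lyz, lck, ZAP70, cd4-1, ighm and RAG1, at -0.43 to -1.41. No counts were found in any library for cd8a, cd79a and cd79b. The epithelial markers, with sums of 807.8, 756.1 and 697.4 CPM in WT and 1319, 745.4 and 1443 CPM in mutant libraries, were also higher in mutant replicates 1 and 3. The part of these cell types in the btr values was not tested.

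**Figure D4:**
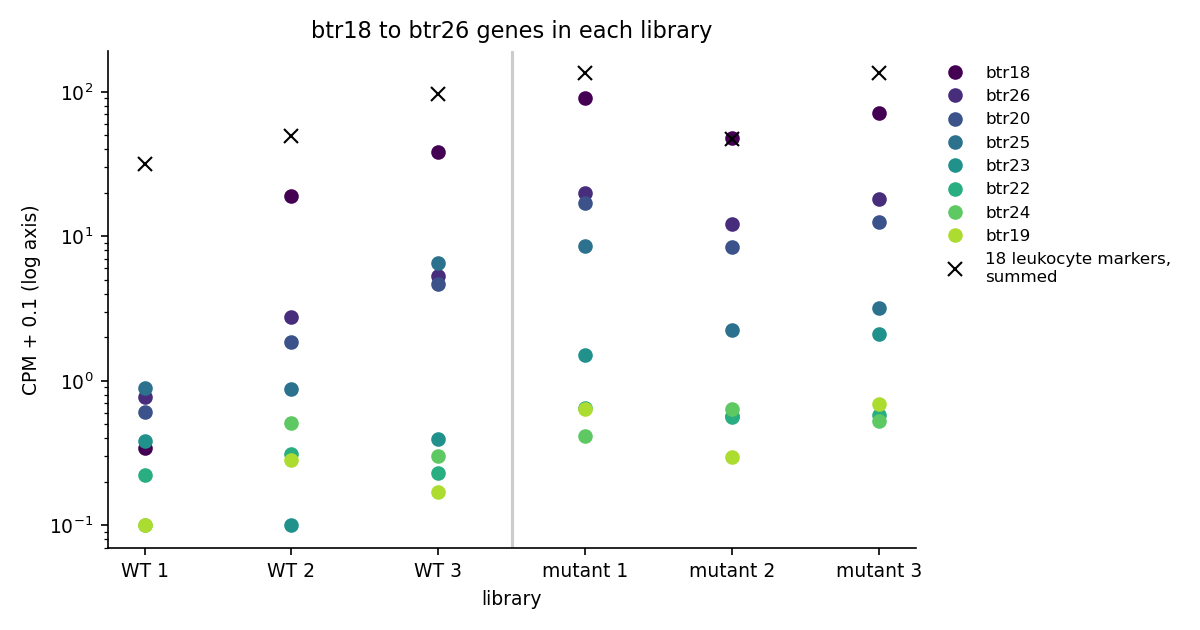
CPM + 0.1 on a log axis of btr18 to btr26 in each of the 6 libraries, with the summed CPM of 18 leukocyte markers as crosses. btr18, btr20 and btr26 were lowest in WT replicate 1, where btr18 was at 0.242 CPM, and btr18 reached 90.0 CPM in mutant replicate 1. The marker sum was likewise lowest in WT replicate 1.

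Outside btr18 to btr26 the btr genes went both ways. Of all 17 btr members 13 had a higher fitted level in the mutant and 4 a lower one. The btr30 gene had 2.67, 3.35 and 2.37 CPM in WT and 1.37, 0.85 and 1.96 CPM in mutant libraries (log2 fold change -1.01, adjusted p = 0.22 with edgeR), and btr02 had 0.591, 0.305 and 0.249 CPM in WT and 0.108, 0.183 and 0.151 CPM in mutant libraries (log2 fold change -1.36, adjusted p = 0.31). In both, all mutant libraries lay below all WT libraries without passing the test. Among the most counted btr genes, btr12 had 18.9, 18.7 and 17.8 CPM in WT and 29.8, 24.9 and 19.3 CPM in mutant libraries, with no overlap (log2 fold change 0.41, adjusted p = 0.25). The btr09 gene had 13.6, 12.7 and 5.71 CPM in WT and 15.2, 16.7 and 15.3 CPM in mutant libraries (log2 fold change 0.56, adjusted p = 0.38). The btr16 gene had 11.7, 29.5 and 22.8 CPM in WT and 20.5, 24.6 and 46.3 CPM in mutant libraries, which overlapped (log2 fold change 0.51, adjusted p = 0.54). The other 4 btr members, btr24 and btr25 among them, had log2 fold changes from -0.11 to 1.05.

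Summed over the 17 btr members, the level was 133.9, 171.6 and 177.8 CPM in WT and 274.4, 219.6 and 275.5 CPM in mutant libraries. The genotypes did not overlap, at 161.1 ± 23.7 for WT and 256.5 ± 31.9 for mutant ovaries (mean ± SD, n = 3). Without btr18, btr20, btr25 and btr26 the sums were 134.2 ± 12.2 in WT and 152.9 ± 15.8 in mutant ovaries (SD, n = 3), and the genotypes overlapped, so that these 4 genes made up most of the difference. The 4 were picked after their values were seen, so that leaving them out had to make the difference smaller. The 30 ftr members summed to 255.3, 283.9 and 320.2 CPM in WT and 262.0, 239.4 and 246.3 CPM in mutant libraries, which overlapped, and ftr86 alone gave 49.0% of the sum. The 51 trim members summed to 1397, 1380 and 1391 CPM in WT and 1313, 1318 and 1145 CPM in mutant libraries. The trim sums did not overlap on this scale but did on total counts, where mutant replicate 1 had 1417 CPM and the WT libraries 1342 to 1359 CPM.

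**Figure D5:**
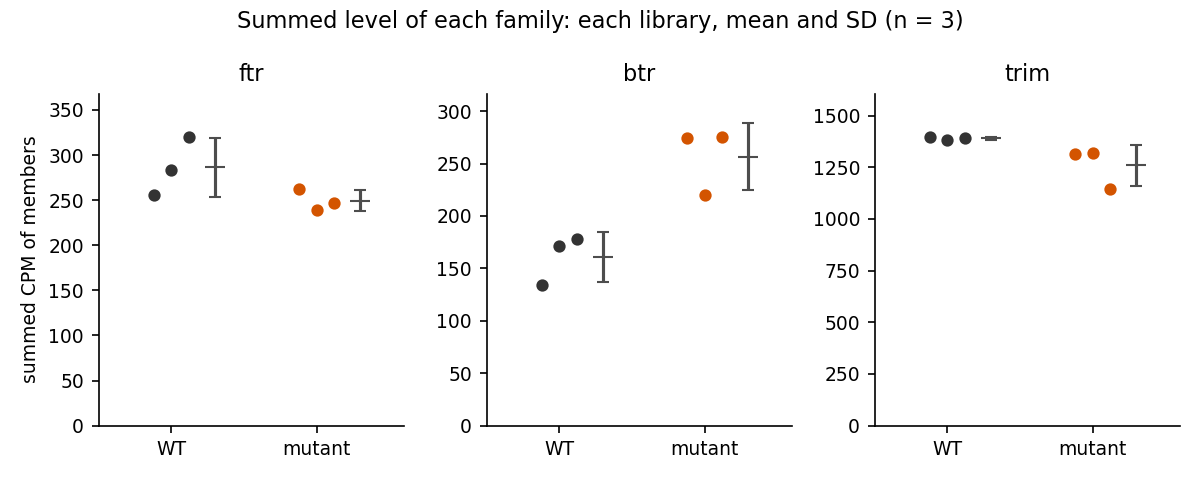
Summed CPM of the ftr, btr and trim members in each library, with the mean ± SD of 3 libraries per genotype. The btr sum was 161.1 in WT and 256.5 in mutant ovaries, the ftr sums overlapped between the genotypes, and the trim sum was 1389 in WT and 1259 in mutant ovaries.

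The most counted finTRIM genes, ftr86 and ftr81, differed between the genotypes by less than the libraries of a genotype differed among themselves. The ftr86 gene had 127.6, 128.0 and 147.4 CPM in WT and 131.2, 128.4 and 124.5 CPM in mutant libraries (log2 fold change -0.07, standard error 0.085), and ftr81 had 61.3, 81.2 and 69.0 CPM in WT and 70.6, 71.0 and 78.5 CPM in mutant libraries (log2 fold change 0.06, standard error 0.12). Both overlapped between the genotypes. The ftr24 gene had 31.9, 42.7 and 34.8 CPM in WT and 22.6, 13.3 and 19.5 CPM in mutant libraries, all below the WT libraries. Its log2 fold change was -0.98 (SE 0.22) and its adjusted p was 0.052 with edgeR, with a range from 0.00025 with DESeq2 to 0.12 over the alternatives.

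Several lower finTRIM genes differed by over 1 on the log2 scale with no overlap between WT and mutant, without passing edgeR's test. The ftr19 gene had 2.97, 1.59 and 2.87 CPM in WT and 11, 4.16 and 5.88 CPM in mutant libraries (log2 fold change 1.5, adjusted p = 0.11 with edgeR and 0.0069 with DESeq2). The ftr02 gene had 0.121, 0.291 and 0.451 CPM in WT and 1.43, 1.29 and 1.07 CPM in mutant libraries (log2 fold change 2.13, adjusted p = 0.088 with edgeR and 0.017 with DESeq2). Both were higher in each mutant library and were called by DESeq2 alone. The ftr04 gene had 0, 8 and 13 counts in WT and 17, 40 and 15 counts in mutant libraries (fitted log2 fold change 1.79, adjusted p = 0.45 with edgeR). The ftr13 gene had 4, 0 and 8 counts in WT and 18, 11 and 20 counts in mutant libraries (2.00 on the log2 scale, adjusted p = 0.38), and ftr80 had 10, 0 and 6 counts in WT and 16, 12 and 17 counts in mutant libraries (1.44 on the log2 scale, adjusted p = 0.54). These 3 had higher counts in each mutant library, and ftr13 met the count minimum through those libraries only. Every WT count of ftr13 and ftr80 lay under the floor of 12 counts, so that their fitted changes are uncertain. The highest WT and lowest mutant counts were 10 and 12 in ftr80 and 13 and 15 in ftr04. About 4 units of the table appear to stand for 1 fragment.

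A neighbouring pair with an antiviral background is ftr82 and ftr83, of which ftr83 is known in zebrafish for protection against virus in the gills and was picked for that role. The ftr82 gene had 2.15, 0.834 and 2.29 CPM in WT and 4.46, 2.54 and 4.0 CPM in mutant libraries (log2 fold change 1.06, adjusted p = 0.26 with edgeR), and ftr83 had 1.07, 0.530 and 0.747 CPM in WT and 0.672, 0.628 and 0.795 CPM in mutant libraries (log2 fold change -0.17, adjusted p = 0.88). The genotypes did not overlap in ftr82 and overlapped in ftr83. In the array of ftr76, ftr88, ftr73, ftr72 and ftr91, ftr91 had 46, 31 and 75 counts in WT and 8, 0 and 7 counts in mutant libraries (fitted log2 fold change -3.34, adjusted p = 0.13 with edgeR and 0.027 with DESeq2). In the same array ftr88, which edgeR did not test, had 50, 10 and 44 counts in WT and 5, 0 and 0 counts in mutant libraries (adjusted p = 0.044 with DESeq2). Since ftr91 and ftr88 met the count minimum only through WT libraries, their lower mutant counts follow from how they were chosen. The genotypes overlapped in ftr72, with 33, 0 and 0 counts in WT and 13, 0 and 13 counts in mutant libraries. They also overlapped in ftr76, with 7, 0 and 4 counts in WT and 15, 23 and 0 counts in mutant libraries. The ftr73 gene had 11, 7 and 8 counts in WT and 0, 0 and 0 counts in mutant libraries (adjusted p = 0.17 with DESeq2). Its mutant counts were thus lower than each WT count, but its WT counts all lay under the floor. Both ftr76 and ftr73 were below the count minimum. The other 15 tested ftr members had log2 fold changes between -1.93 and 0.91 and adjusted p values of at least 0.43 with edgeR.

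By their place in the genome, 21 of 35 ftr and btr members found in the RefSeq order had another family gene beside them, against 6 of 43 trim members. Of the 10 pairs of neighbouring members that were both tested, 8 had log2 fold changes of the same sign and 2 of opposite sign, which were ftr87 with ftr67 and ftr82 with ftr83. In the pairs ftr13 with ftr14, ftr72 with ftr91 and ftr87 with ftr67, a member met the count minimum through 1 genotype only. The direction of ftr13, ftr91 and ftr87 was thus fixed by how they were chosen. The pairs among btr23, btr24, btr25 and btr26 share genes. Neighbouring copies can also share reads, so these pairs are a description only. The ftr and btr genes also varied more between WT libraries. Among members of at least 1 CPM, the median of the highest over the lowest WT library was 2.03-fold for 10 ftr genes, 2.43-fold for 10 btr genes and 1.25-fold for 40 trim genes, beside 1.25-fold for all 14203 genes (pseudocount of 0.1 CPM). The WT libraries differed by over 3-fold in 2 of the ftr, 4 of the btr and 0 of the trim genes, against 7.17% of all genes. Between mutant libraries the contrast was smaller, with medians of 1.82-fold for ftr, 1.92-fold for btr, 1.39-fold for trim and 1.32-fold for all genes, and differences over 3-fold in 1 ftr, 1 btr and 2 trim genes and in 981 of all genes.

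None of the 5 trim genes with the highest mean CPM passed edgeR's test. TRIM36, whose mRNA lies at the vegetal pole of Xenopus eggs, had 276.2, 276.4 and 348.3 CPM in WT and 249.1, 300.8 and 240.9 CPM in mutant libraries (log2 fold change -0.19, standard error 0.13). TRIM37, whose human gene is mutated in mulibrey nanism, had 64.8, 70.0 and 69.3 CPM in WT and 83.1, 69.8 and 55.9 CPM in mutant libraries (log2 fold change 0.03, standard error 0.14). In both the genotypes overlapped. TRIM33, the moonshine gene of zebrafish blood formation, had 162.4, 147.8 and 150.1 CPM in WT and 118.2, 129.1 and 93.4 CPM in mutant libraries, each below each WT library. Its log2 fold change was -0.43 (SE 0.12, edgeR adjusted p = 0.10 and 0.032 with DESeq2). The trim35-29 gene had 180.8, 131.6 and 119.1 CPM in WT and 114.8, 128.7 and 97.4 CPM in mutant libraries (log2 fold change -0.34), and trim16 had 60.9, 61.4 and 56.0 CPM in WT and 76.5, 63.2 and 68.0 CPM in mutant libraries (log2 fold change 0.22), with overlap in the first and none in the second. TRIM71, the vertebrate counterpart of the let-7 target LIN-41 of Caenorhabditis elegans, was higher in each mutant library, at 28.6, 37.6 and 34.7 CPM in WT and 46.7, 40.6 and 39.0 CPM in mutant libraries (log2 fold change 0.32, adjusted p = 0.25 with edgeR), and was picked for its role.

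By C-terminal class, the COS class had the lowest median log2 fold change among classes of 3 or more members, at -1.28 over trim55a, TRIM54 and TRIM55, which are known as muscle ring finger genes in mammals. TRIM55 (ENSDARG00000058158) had 1.49, 3.59 and 1.91 CPM in WT and 1.02, 0.706 and 0.807 CPM in mutant libraries (log2 fold change -1.46, adjusted p = 0.12 with edgeR and 0.032 with DESeq2), and trim55a had 0.658, 0.305 and 0.819 CPM in WT and 0.240, 0.262 and 0.227 CPM in mutant libraries (log2 fold change -1.28, adjusted p = 0.28). Both lay lower in each mutant library, while TRIM54 had a log2 fold change of 0.52. The 4 muscle markers that matched a gene summed to between 1.62 and 2.91 CPM in WT and between 1.36 and 2.05 CPM in mutant libraries, 1 of them had no counts, and their part in these values was not tested. The 6 PRY-SPRY members had a median of 0.06 (-1.01 to 0.60), with trim25 at -0.06, and the 6 NHL members a median of 0.12 (-0.52 to 0.71). No member listed in either class passed the test. The class lists did not hold every trim member. The numbered trim35 genes, among them a gene that the test called lower, were not placed in any class.

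TRIM3, TRIM8 and TRIM62 were each the symbol of 2 members, and the copies showed unlike values. TRIM3 (ENSDARG00000063711) had 22.8, 20.6 and 23.4 CPM in WT and 16.8, 16.1 and 13.7 CPM in mutant libraries, with no overlap (log2 fold change -0.52, adjusted p = 0.095 with edgeR), while the other TRIM3 (ENSDARG00000005397) had a log2 fold change of 0.26. TRIM8 (ENSDARG00000060729) had 47.9, 44.8 and 41.9 CPM in WT and 72.7, 55.2 and 55.1 CPM in mutant libraries, again with no overlap (log2 fold change 0.44, adjusted p = 0.12), while the other TRIM8 (ENSDARG00000090512) had a log2 fold change of -0.19. TRIM62 had a log2 fold change of -1.01 for ENSDARG00000095536 (adjusted p = 0.23 with edgeR) and of 0.17 for ENSDARG00000060901. The difference between the copies was not tested.

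The numbered trim35 genes, set apart after the values were seen, split into 5 higher and 11 lower with a median log2 fold change of -0.32, while the other 35 trim members had a median of 0.02. The trim35-24 gene had 51, 29 and 25 counts in WT and 0, 2 and 0 counts in mutant libraries, and its fitted log2 fold change of -5.50 had an adjusted p of 0.051 with edgeR and 0.0040 with DESeq2. The trim35-1 gene had 1.34, 4.04 and 3.43 CPM in WT and 0.492, 0.837 and 1.17 CPM in mutant libraries (log2 fold change -1.81, adjusted p = 0.11 with edgeR). Both were lower in each mutant library. Since trim35-24 met the count minimum only through WT libraries, its lower mutant counts follow from how it was chosen. In the other direction, trim35-45 had 0.860, 1.47 and 1.42 CPM in WT and 3.18, 3.14 and 3.96 CPM in mutant libraries (log2 fold change 1.45, adjusted p = 0.063 with edgeR and 0.0023 with DESeq2), and trim110 had 0.134, 0.0927 and 0.0475 CPM in WT and 0.420, 0.471 and 0.240 CPM in mutant libraries (log2 fold change 2.03, adjusted p = 0.18). Neither overlapped between the genotypes, although every WT value of trim110, at 10, 7 and 4 counts, lay under the floor of 12 counts. The trim35-27 gene varied widely among the mutant libraries, with 46.5, 18.5 and 6.93 CPM beside 23.6, 32.0 and 33.0 CPM in WT. The other trim members had log2 fold changes between -1.89 and 1.59, with a lowest adjusted p of 0.074 with edgeR, that of trim107 (log2 fold change 0.78).

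Genes of the pathway around the TRIM family were set beside the members. Of 54 names of interferon and nucleic acid sensing genes, 44 matched a gene, 30 were tested and 4 of those matched had no counts at all. The test called 1 of the 30 higher and 1 lower, beside 4.57% of all genes called in either direction. Their median log2 fold change was 0.42. DESeq2 called 1 higher and 2 lower, beside 11.2% of all genes to which it gave an adjusted p. TYK2, a kinase of interferon receptors, rose from 1.93, 2.29 and 2.11 CPM in WT to 7.93, 6.15 and 5.64 CPM in mutant libraries (log2 fold change 1.64, standard error 0.26, adjusted p = 0.019 with edgeR). The transcription factor gene irf1a fell from 9.78, 10.6 and 8.59 CPM in WT to 0.576, 0.667 and 0.757 CPM in mutant libraries (log2 fold change -3.86, standard error 0.27, adjusted p = 0.00076 with edgeR). Both changes were far larger than the spread within a genotype. Of 18 tested genes for ubiquitin partners and other RING, B-box and coiled-coil proteins, 0 were called by edgeR or by DESeq2. Of the 18, 11 were higher and 7 lower, with a median log2 fold change of 0.05. The genotypes did not overlap in 3 of them, beside 28.4% of all genes. Among the 3 was MID2, named after its values were seen. It had 3.24, 25.9 and 2.54 CPM in WT and 36.0, 43.2 and 38.0 CPM in mutant libraries (log2 fold change 1.89, SE 0.83, edgeR adjusted p = 0.26).

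DESeq2 called 20 of the 98 members (20.4%), 8 higher and 12 lower, against 11.2% of all genes to which it gave an adjusted p. The 20 include ftr87, ftr88, ftr91 and trim35-24, which met the count minimum through a single genotype only. Their difference follows from how they were chosen, so that the share of 20.4% is not a like-for-like comparison with 11.2%. The 20 held all 5 members called by edgeR, and 10 were ftr or btr genes (5 higher and 5 lower) and 10 trim genes (3 higher and 7 lower). The study names 3 biological replicates for each group. The labels do not say that the libraries of a genotype came from separate fish, and the p values measure the spread between these libraries.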

How the data were processed

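RNA-seq libraries of 3 WT and 3 ddx4-L mutant ovaries were used. Per the study's methods the authors used Cutadapt for trimming, STAR for mapping to GRCz11 and featureCounts for counting, while the submitters' processing notes name HISAT2, StringTie, RSEM and DESeq2. The deposited table holds whole numbers that sum to more than the reads and were used as estimated counts, without scaling by the authors. Genes were kept with filterByExpr, scaled by TMM and tested for genotype in R 4.3.3 with edgeR 4.0.16 (glmQLFit and glmQLFTest), without a block, with Benjamini-Hochberg adjustment over 19353 genes. This test was planned for counts, and a fit on values divided by 4 was among the alternatives. Sums and counts used pandas 2.3.3 in Python 3.11.15, and figures matplotlib 3.10.9. Only the main edgeR fit was tested on simulated data, and the alternative fits were not.

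Values are given in every library for members with an adjusted p under 0.05, for others without overlap between the genotypes and with a log2 fold change of 1 or more in size, and for the 5 members with the highest mean CPM in each family. Members picked outside that rule are named as such or by their values: ftr83 and TRIM71 for their role, and ftr88, btr24, btr25, TRIM3, TRIM8, TRIM54, TRIM62, trim25, trim35-27 and trim107 after their values were seen. The members, marker lists and pathway lists were chosen with earlier results of these data known. Alternatives were scaling by RLE, by the upper quartile or by total counts, other low-count filters, DESeq2 1.42.0, the robust option, a replicate block, stricter minimums for members and leaving out each library in turn. No sequences are printed, and RefSeq order (GRCz12tu) served only to find neighbours, for 78 of the 98 members. Splicing, polyadenylation, editing and transposon data were not analysed here.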

Additional observations from a re-analysis of the deposited data

How the results depend on the processing

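With DESeq2 the members called rose from 3 to 10 for ftr and btr and from 2 to 10 for trim. Calls over all genes rose as well, from 884 to 2368. With a log2 fold change of 1 or more in size DESeq2 called 9 ftr and btr and 6 trim members. No share of all genes was computed for DESeq2 with that limit. These DESeq2 calls include ftr87, ftr88, ftr91 and trim35-24, which met the count minimum through a single genotype only. Leaving out each library in turn gave 1 to 3 calls among ftr and btr and 1 to 2 among trim, with or without that fold change, and 380 to 553 calls over all genes against 884 with all libraries. The count for ftr and btr fell to 1, which was btr07, without any 1 mutant library, and the count for trim fell to 1, which was trim35-7, without WT replicate 2 or mutant replicate 3. The median log2 fold change lay between 0.25 and 0.47 for ftr and btr and between -0.12 and 0.03 for trim with a library left out, and the difference of the medians between 0.37 and 0.51 (0.48 with all). Total-count scaling moved the trim median to 0.06 and that of all genes from 0.01 to 0.10, and the WT trim sum to 1351 CPM. Uncalled log2 fold changes passed through 0 for ftr86 (0.01 with total-count scaling, and -0.11 to 0.00 with a library left out), ftr81 (-0.03 to 0.17) and TRIM37 (-0.12 to 0.17). The causes of these changes were not tested.

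The replicate numbers showed no clear pairing of the libraries. The deviations of same-numbered libraries had correlations of -0.0741, 0.0826 and -0.0176, and 2 of 6 libraries correlated best with their own number. With so few libraries this cannot exclude a pairing, and the labels do not say what a number stands for. With the number as a block, 325 genes were called, 4 of the 5 members kept their call, ftr87 lost it (adjusted p = 0.20, edgeR) and the trim median was -0.09. The call of ftr87 was also lost with all genes of at least 1 count (0.074), with a mean of at least 10 counts (0.052) and with the robust option (0.056). With values divided by 4, ftr87 was not among the genes tested.

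Depth limits the lowest members, of which 27 of 47 ftr and btr genes and 11 of 51 trim genes had a mean under 1 CPM, where a few fragments decide a value.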

Other observations

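Beyond the members described above, only btr06 among the 65 family genes below the count minimum reached a count over 40 in any library, with 0, 0 and 33 counts in WT and 0, 0 and 76 counts in mutant replicates 1, 2 and 3. The counts came from replicate 3 of each genotype alone.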
